A study of Mus musculus with 4 samples.

Results

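The clustered histone genes are the genes of the canonical histones H1, H2A, H2B, H3 and H4 that lie side by side in the mouse genome. They were taken as every gene whose name on the array begins with Hist1h, Hist2h, Hist3h or Hist4h, where the digit is the number of the genomic cluster. This gave 56 of the 37074 named genes, measured by 68 probes: 6 genes of H1, 18 of H2A, 14 of H2B, 9 of H3 and 9 of H4. Cluster 1 on chromosome 13 holds 42 of them, cluster 2 on chromosome 3 holds 10, cluster 3 on chromosome 11 holds 3, and cluster 4 on chromosome 6 is the single gene Hist4h4.

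Total RNA of whole C57BL/6 embryos was hybridised to 4 one-colour mouse arrays, 1 each for wild type (WT) and *Dyrk2*-/- embryos at the embryonic stages E8.5 and E10.5 (days of gestation). The mutants lack the dual-specificity kinase Dyrk2 and carry small deletions made with the CRISPR/Cas9 nickase system. Neither the deletion line nor the number of embryos behind each RNA is stated in the sources used here. The comparisons ask which transcripts differ between the genotypes at a stage and between the stages within a genotype.

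The clustered histone genes supply the bulk of the histones that package new DNA, and their transcription and mRNA levels peak in S phase, when DNA is copied. Most of their mRNAs end in a conserved stem-loop in place of a poly(A) tail, and the stem-loop binding protein Slbp and the U7 snRNP direct the cleavage of the precursor behind it. Some of the genes also give polyadenylated transcripts, which have been described in differentiating and non-dividing cells.

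Levels are given as the log2 of the processed intensity minus the 75th percentile of that array, and a ratio is the difference of 2 such values. Values on all arrays are listed in the order WT E8.5, mutant-labelled E8.5, WT E10.5, mutant-labelled E10.5. A ratio of at least 1.5-fold counted as higher or lower. With 1 array per group, no ratio between 2 arrays has a replicate or a p. The genotype and stage comparisons share the 4 arrays, and a threshold passed in 1 comparison and not in another is no test of the difference between them. Where a probe was printed more than 2 times on an array, the median SD between its spots was 0.09, 0.12, 0.07 and 0.08 (log2), which is a technical spread and not one between embryos.

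Dyrk2 itself was not lower on the arrays labelled *Dyrk2*-/-. Its brighter probe read 0.06, 0.76, −0.31 and 0.34, which is 1.62-fold and 1.57-fold higher on the mutant-labelled array at E8.5 and E10.5. Its other probe read −0.23, −0.20, −0.28 and −0.00, with no ratio past 1.5-fold. The E8.5 ratio of the brighter probe of Dyrk2 was 0.15 with spike-in scaling and, without scaling, both ratios (0.44 and 0.52) were below 1.5-fold. These probes lie at 118296479 to 118296538 and 118295164 to 118295223 of chromosome 10 (mm9), and their place relative to the deleted bases was not worked out, so they do not check the labels. Every genotype ratio is therefore given for the arrays as labelled. Among the genes that tell the sexes apart, signal well above background was seen on 3 arrays, and not on the mutant-labelled E10.5 array, for 4 Y-linked genes (Uty, Kdm5d, Ddx3y and Eif2s3y), and Xist, the RNA of the inactive X chromosome, was well above background on that array (−0.37) and on no other. Sex and genotype therefore cannot be told apart at E10.5, nor sex and stage among the mutant-labelled arrays.

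Of the 56 clustered histone genes, 49 (87.5%) were well above background on all 4 arrays, against 50.4% of all genes. By the probes that carry their names, Hist1h2ad, Hist1h2al, Hist2h2aa1 and the pseudogene Hist3h2bb-ps were below background on every array. A further probe, described on the array as H2aa1 of histone cluster 2 but not so named, was above background on all 4. Hist1h2ac was missed on the mutant-labelled E8.5 array, Hist2h3c2 on the WT E8.5 array and Hist1h4h on both E10.5 arrays. All 6 H1 genes, 14 of 18 H2A, 13 of 14 H2B, 8 of 9 H3 and 8 of 9 H4 genes passed on all 4 arrays. No spot was saturated. In whole embryos, fewer cells in S phase and less histone mRNA per cell cannot be told apart.

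At E8.5, 52 clustered histone genes could be compared, and 3 were higher and 1 lower on the mutant-labelled array. Over all 20709 genes compared, 5.14% were higher and 6.5% lower, 11.6% in all, so the 7.69% of clustered histone genes past the threshold was not above the array's general rate. Hist1h2bg, an H2B gene, read −3.98, −3.23, −4.24 and −4.57 and was 1.68-fold higher on the mutant-labelled array at E8.5. Hist2h2ab, an H2A gene of cluster 2, read −3.37, −2.63, −2.13 and −2.67 and was 1.67-fold higher. Both lie low on the scale, and for both the mutant-labelled array was the higher at E8.5 and the lower at E10.5 (−0.33 and −0.54). Neither call at E8.5 holds with spike-in scaling (0.20 for Hist1h2bg and 0.19 for Hist2h2ab), without scaling (0.49 and 0.48) or with normexp (0.40 for each). Hist2h3c2, an H3 gene, was well above background on the mutant-labelled array alone (−4.22) and was at least 1.51-fold higher there, with the WT array taken at its lowest signal above background. Hist1h2ae, an H2A gene, read −2.51 on WT and −3.11 on the mutant-labelled array, 1.52-fold lower, a call that ends with normexp (−0.16).

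The classes did not share a direction at E8.5. The median ratio was 0.25 over 9 H4 genes, 0.18 over 9 H3 genes, 0.17 over 15 H2A genes, −0.03 over 6 H1 genes and −0.09 over 13 H2B genes, against −0.02 over all genes and 0.09 over the 52 clustered histone genes. Scaling to the spike-in RNA moved the median of all genes to −0.57 and leaving the arrays unscaled moved it to −0.28, so classes are read relative to that median. The clustered histone genes past the threshold then numbered 1 higher and 20 lower with spike-in scaling, 1 higher and 5 lower without scaling, and 0 with the normexp background correction. Spike-in scaling and no scaling shift a whole array by a constant, so relative to all genes they repeat the 75th-percentile values by construction. The deposited values lay within a median of 0.006 of quantile normalization. Here and below, agreement over the 6 scalings relative to all genes is therefore not 6 separate checks. Over them H4 lay 0.22 to 0.27 higher, H3 0.15 to 0.20 higher and H2A 0.08 to 0.19 higher. H2B lay between −0.08 and −0.06, and H1 changed sign, from −0.04 to 0.05. In the H3 class 8 of 9 ratios were above 0 and in the H2A class 11 of 15, while in the H2B class 10 of 13 were below 0. These signs are those of the 75th-percentile scaling, and with spike-in scaling 1 of 9 H3, 1 of 15 H2A and 0 of 9 H4 ratios were above 0, and without scaling 2, 5 and 4.

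Among the H4 genes with bright probes, Hist1h4d gave the best measured ratio, since its probe is printed 10 times. It read 7.78 on WT and 8.03 on the mutant-labelled array at E8.5, a difference of 0.25, with SDs between spots of 0.04 and 0.09. At E10.5 it read 8.09 and 8.06, with SDs between spots of 0.08 and 0.09. Scaling moves the E8.5 ratio of Hist1h4d by more than that spread, to −0.30 with spike-in scaling and −0.01 without scaling, and the spread between embryos cannot be had from 1 array each. Hist2h4 had the largest H4 ratio at E8.5 (0.37, from 6.67 to 7.05), followed by Hist1h4j (0.35, from 3.19 to 3.54), and Hist1h4m (−0.40) and Hist1h4i (−0.11) had the lowest. Hist4h4, the gene that forms a cluster of its own, read 4.73, 5.01, 5.05 and 4.95. With spike-in scaling the E8.5 ratios of Hist2h4 (−0.17), Hist1h4j (−0.20) and Hist4h4 (−0.26) turn negative as well.

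In the other classes, these genes were within 1.5-fold at E8.5. In H1, Hist1h1e (0.28) and Hist1h1d (0.26) had the highest ratios, and Hist1h1t, the linker histone of the testis, had the lowest (−0.52). In H2A, Hist3h2a had a ratio of 0.34 and Hist1h2ag of −0.22. In H2B, Hist2h2bb was at 0.03, Hist3h2ba at −0.32 and Hist1h2bc at −0.47. In H3, Hist2h3b was at 0.46 (from 3.83 to 4.29), Hist2h3c1 at 0.23 and Hist1h3a at −0.48 (from 1.46 to 0.98). Spike-in scaling turned the positive ratios named here negative, together with the median of all genes, and no scaling those of Hist2h2bb and Hist2h3c1.

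At E10.5, 51 clustered histone genes were compared, and 0 were higher and 2 lower on the mutant-labelled array, where 3.5% of all 21209 genes were higher and 4.22% lower, 7.72% in all. Both are H2B genes. Hist3h2ba, listed here with the testis histones, read 3.05 on WT and 2.45 on the mutant-labelled array, 1.52-fold lower. It was also the lower there at E8.5 (1.31 against 0.99). Its other probe had −0.37 at E10.5, and the mean over its probes ends this call. Hist1h2bp read −3.46 and −4.21, 1.68-fold lower, close to the lowest signal above background of these arrays (−4.72 and −4.77). With the Z-score or 2-fold threshold neither passed, with normexp 1 did, and spike-in scaling gave 3 higher and 0 lower.

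The medians at E10.5 were −0.06 for H1, −0.05 for H2A, −0.13 for H2B, −0.04 for H3 and −0.06 for H4, against −0.08 over all 51 genes and −0.00 over all genes of the array. Relative to all genes, H1, H2B, H3 and H4 were below 0 with the chosen scaling, quantile normalization, normexp and the deposited values, with H2B the lowest. H2A was above 0 with the normexp background correction (0.03). In H2B, 10 of 13 ratios were below 0, but 5 of 13 with spike-in scaling, which moved the median of all genes to 0.16. Hist1h2bq (0.46), Hist1h2be (0.45) and Hist1h1t (0.44) had the highest ratios, all of them dim probes. Hist2h2ac was at 0.31 and Hist2h3c1 at 0.22. Hist2h2ab (−0.54) and Hist1h2ah (−0.41) were lowest in H2A, Hist1h1e (−0.22) in H1, Hist1h3g (−0.21) and Hist1h3i (−0.19) in H3, and Hist1h4c (−0.18) and Hist1h4k (−0.10) in H4. No clustered histone gene was past 1.5-fold at both stages, in the same direction or in opposite ones.

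**Figure D1:**
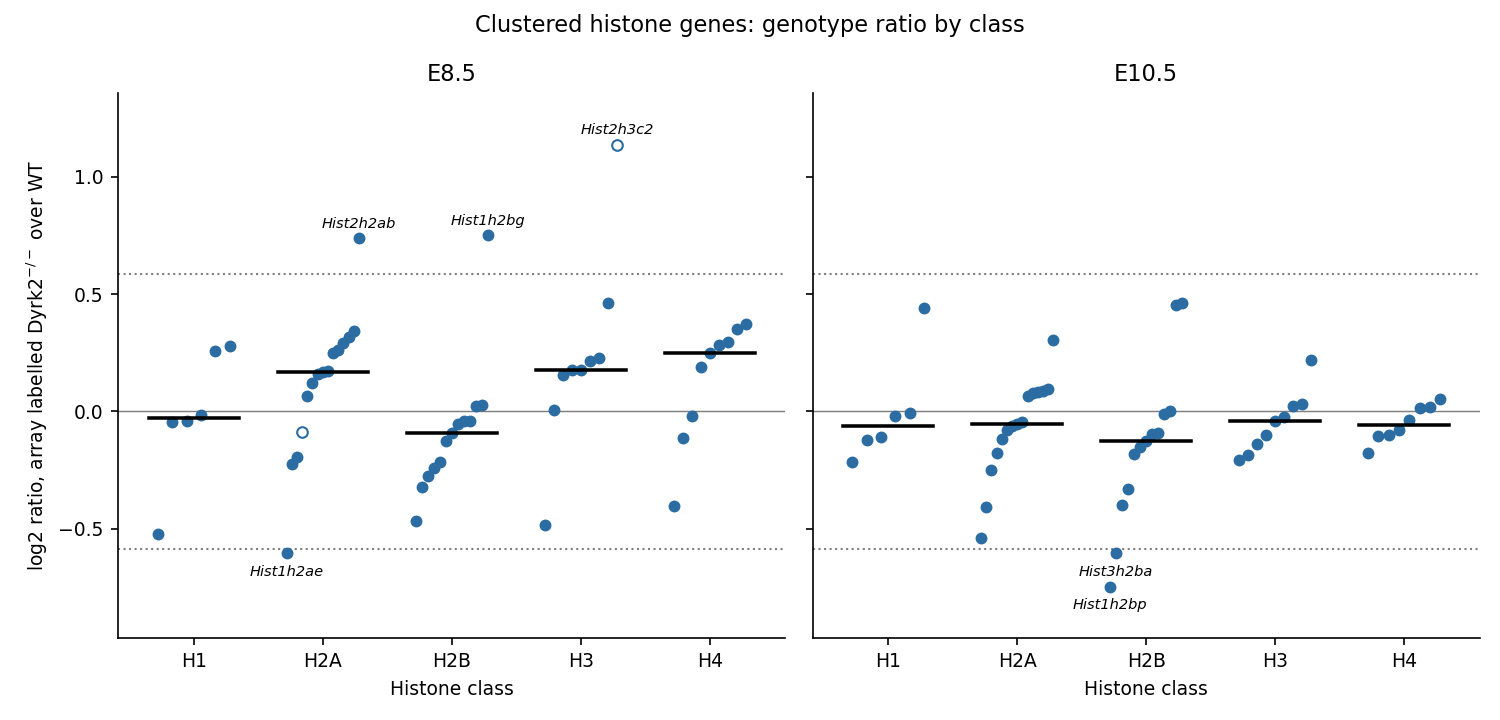
Log2 ratio of the mutant-labelled array over the WT array for each clustered histone gene (points) by class, at E8.5 (left) and E10.5 (right); open points are genes well above background on 1 of the 2 arrays, black bars are class medians and dotted lines mark 1.5-fold. At E8.5 the H4 median is 0.25 and the H2B median −0.09, and at E10.5 all 5 medians lie between −0.13 and −0.04; spike-in scaling shifts the median of all genes to −0.57 at E8.5 and 0.16 at E10.5, which turns the sign of the positive medians at E8.5 (as does no scaling) and of all 5 at E10.5.

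Over both stages together, limma (genotype and stage as terms, 4 arrays, 1 residual degree of freedom) called 0 of 61 clustered histone probes for the genotype at an adjusted p under 0.05, where 0.0186% of all 32289 probes were called. At an unadjusted p under 0.05 limma gave 4 of the 61, against 1592 of all 32289 probes. These were both probes of Hist3h2ba (−0.46, 95% interval −0.76 to −0.17, limma adjusted p = 0.664, and −0.40), Hist2h2ac (0.30) and the dimmer probe of Hist3h2a (−0.32). The brighter Hist3h2a probe had the opposite sign (0.20). With spike-in scaling 0 of the 61 had an unadjusted limma p under 0.05 (338 of all probes), and without scaling 12 (4551 of all probes).

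Erythroid markers, and to a lesser extent those of the yolk sac endoderm, differed between the genotypes at E8.5, while most other cell markers did not pass the threshold. All 15 erythroid genes that could be compared were higher on the mutant-labelled array at E8.5, with a median ratio of 4.32. Their summed level in units of the array's 75th percentile was 17.7, 389.8, 1389 and 1631. The brightest of their probes was that of the embryonic globin gene Hbb-bh1 on the E8.5 arrays and of Hbb-y on the E10.5 arrays. At E10.5, 12 of 17 were higher. Over all genes 11.6% passed at E8.5 and 7.72% at E10.5, in either direction. Of 8 genes of the yolk sac endoderm, which nourishes the early embryo, 4 were lower at E8.5, or all 8 with spike-in and with no scaling. At E10.5, 0 of 7 passed. Their summed level was 52.9, 35.5, 25.8 and 21.0, with the brightest probe that of Rbp4 at E8.5 and of Afp at E10.5. Neural markers (4 genes) passed at neither stage, while spike-in scaling put all 4 past the threshold, lower, at E8.5. Their summed level was 24.1, 21.3, 20.5 and 20.2, with the brightest probe that of Otx2 at E8.5 and of Sox2 at E10.5. Of 5 mesoderm and heart genes Tbx6 was lower at E10.5 (−1.66), and of 3 endoderm genes Foxa2 was lower at E8.5 (−1.06). Of 5 trophoblast and decidua genes compared at E8.5, Prl8a2 (1.45) and Prl3d1 (at least 6.62-fold) were higher and Gcm1 (−0.67) lower, and 0 of 3 passed at E10.5. The part of the different cell make-up in the histone ratios was not tested.

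Between E8.5 and E10.5 in WT, 10 of 52 genes were higher and 4 lower at E10.5, where 18.8% of all 21643 genes were higher and 17.5% lower, 36.4% in all. On the mutant-labelled arrays, 9 of 52 were higher and 4 lower, where 17.6% of 21266 genes were higher and 13.9% lower, 31.5% in all. In both, the share of clustered histone genes past the threshold (26.9% and 25%) was below that of all genes. Spike-in scaling gave 9 higher and 5 lower in WT and 26 higher and 1 lower in the mutant-labelled pair, where it moved the median of all genes to −0.15 and 0.59, and no scaling gave 14 and 3 in WT and 13 and 2. At 1.5-fold with a Z-score 0 passed in WT and 0 in the mutant-labelled pair. The genotypes were measured on separate arrays at both stages. Of the 49 genes above background on all arrays, 6 were higher and 1 lower in both: Hist1h1a, Hist1h1b, Hist1h1d, Hist1h2bc, Hist2h2be and Hist3h2ba were higher, and Hist1h3a was lower. These are 14.3% of the 49 genes, against 18.1% of all 18686 such genes (1787 higher and 1599 lower in both). Outside the 49, Hist2h3c2 was higher and Hist1h4h lower in both.

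H1 had the highest stage medians, 0.46 in WT and 0.34 in the mutant-labelled pair. Relative to all genes it lay 0.54 to 0.68 higher in WT and 0.37 to 0.39 higher in the mutant-labelled pair. These ranges span the chosen scaling, quantile normalization, normexp and the deposited values. Hist1h1b read 4.53, 4.49, 5.46 and 5.35, so that both E10.5 arrays lay above both E8.5 arrays by 1.91-fold in WT and 1.82-fold in the mutant-labelled pair. Hist1h1d read 1.26, 1.52, 2.41 and 2.29 (2.22-fold and 1.71-fold), and Hist1h1a read 1.44, 1.39, 2.06 and 2.06 (1.54-fold and 1.58-fold). Hist1h1d does not pass in either genotype as the mean over its probes (0.49 and 0.25), but its other probe was below background on every array. With spike-in scaling Hist1h1a does not pass in WT (0.55). Hist1h1e differed in sign between the genotypes (0.30 and −0.19). Hist1h1t was lower at E10.5 in WT (−3.05 against −4.01, but not past the threshold with normexp) and level in the mutant-labelled pair (−3.58 and −3.57). The brightest probe of Hist1h1c had −0.53 and −0.54.

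In H2A the stage ratios were small except for a few genes. The median was 0.13 in WT and −0.01 in the mutant-labelled pair. Relative to all genes it lay above 0 (0.20 to 0.22 and 0.05 to 0.10) with the chosen scaling, quantile normalization, normexp and the deposited values. Hist3h2a, an H2A gene of cluster 3, read 5.80, 6.15, 6.54 and 6.60 and passed the threshold in WT (1.66-fold) and not in the mutant-labelled pair (1.37-fold). Its dimmer probe passed in both (1.54-fold and 1.61-fold). Hist1h2ag read 7.68, 7.46, 8.12 and 8.06, with 1.35-fold and 1.52-fold. Hist2h2ab was 2.36-fold higher in WT, not past the threshold with normexp (0.56), and level in the mutant-labelled pair (1.03-fold). Hist1h2ab had 0.48 and 0.50. Hist1h2an (0.16 and −0.35) and Hist1h2ai (−0.12 and −0.04) had the lowest mean ratios. Hist1h2aa, the H2A variant gene of the testis, read 7.98, 8.10, 8.11 and 8.03.

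H2B held the gene with the largest stage ratio in each genotype. Hist2h2be read −0.72, −0.77, 1.43 and 1.03, which is 4.45-fold higher at E10.5 in WT and 3.50-fold in the mutant-labelled pair. Hist3h2ba read 1.31, 0.99, 3.05 and 2.45 (3.35-fold and 2.76-fold), and Hist1h2bc read 0.79, 0.32, 1.48 and 1.33 (1.62-fold and 2.01-fold). For all 3 genes both E10.5 arrays lay above both E8.5 arrays. Hist1h2bp was higher at E10.5 in WT (1.78-fold) and Hist1h2bq in the mutant-labelled pair (2.29-fold), both from dim probes. Hist1h2bg was lower in the mutant-labelled pair (2.53-fold) and within the threshold in WT (1.19-fold). With normexp these calls of Hist1h2bp, Hist1h2bq and Hist1h2bg end (0.15, 0.28 and −0.56). Hist1h2bf read 3.82, 3.60, 3.37 and 3.19, lower by less than 1.5-fold in both. Hist1h2ba, the H2B variant gene of the testis, read 3.50, 3.41, 3.22 and 3.13. The class median was −0.18 and −0.04, and relative to all genes it lay from −0.10 to 0.00 in WT and from −0.04 to 0.05 in the mutant-labelled pair, so H2B as a class had no direction that every scaling kept.

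H3 had stage medians of −0.18 in WT, the same as H2B, and −0.35 in the mutant-labelled pair, the lowest there. Relative to all genes it lay below 0 (−0.10 to −0.08 and −0.29 to −0.22) with the chosen scaling, quantile normalization, normexp and the deposited values. Hist1h3a read 1.46, 0.98, 0.13 and −0.00, 2.51-fold lower at E10.5 in WT and 1.98-fold lower in the mutant-labelled pair, where spike-in scaling takes it below 1.5-fold (−0.34). Hist1h3g read 0.17, 0.35, −0.04 and −0.25 and was lower in the mutant-labelled pair (1.51-fold), where spike-in scaling turned its ratio to 0.04 and the other 4 scalings left it below 1.5-fold. Hist2h3b was above 0 in WT alone (0.16 and −0.35), and Hist2h3c2 was at least 2.51-fold higher at E10.5 in WT and 1.54-fold higher in the mutant-labelled pair, where quantile normalization, normexp and the deposited values end the call. The bright probe of Hist1h3d read 6.40, 6.56, 6.38 and 6.36.

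H4 split by gene. Hist1h4m read 0.35, −0.05, −0.52 and −0.60, 1.82-fold lower at E10.5 in WT and 1.46-fold lower in the mutant-labelled pair. Hist1h4h was above background at E8.5 alone, at least 1.44-fold higher there than at E10.5 in WT and 1.47-fold in the mutant-labelled pair. By its measured values it counted as lower at E10.5 in both. That call ends with spike-in scaling in the mutant-labelled pair, and in both pairs without scaling. Hist2h4 (0.36 and 0.00), Hist1h4d (0.31 and 0.03) and Hist4h4 (0.32 and −0.06) were higher at E10.5 in WT by less than 1.5-fold and about level in the mutant-labelled pair. Hist1h4c had −0.16 and −0.52. The class median was 0.15 and −0.09, and relative to all genes it was above 0 in each scaling in WT (0.20 to 0.37) and changed sign in the mutant-labelled pair (−0.04 to 0.06).

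**Figure D2:**
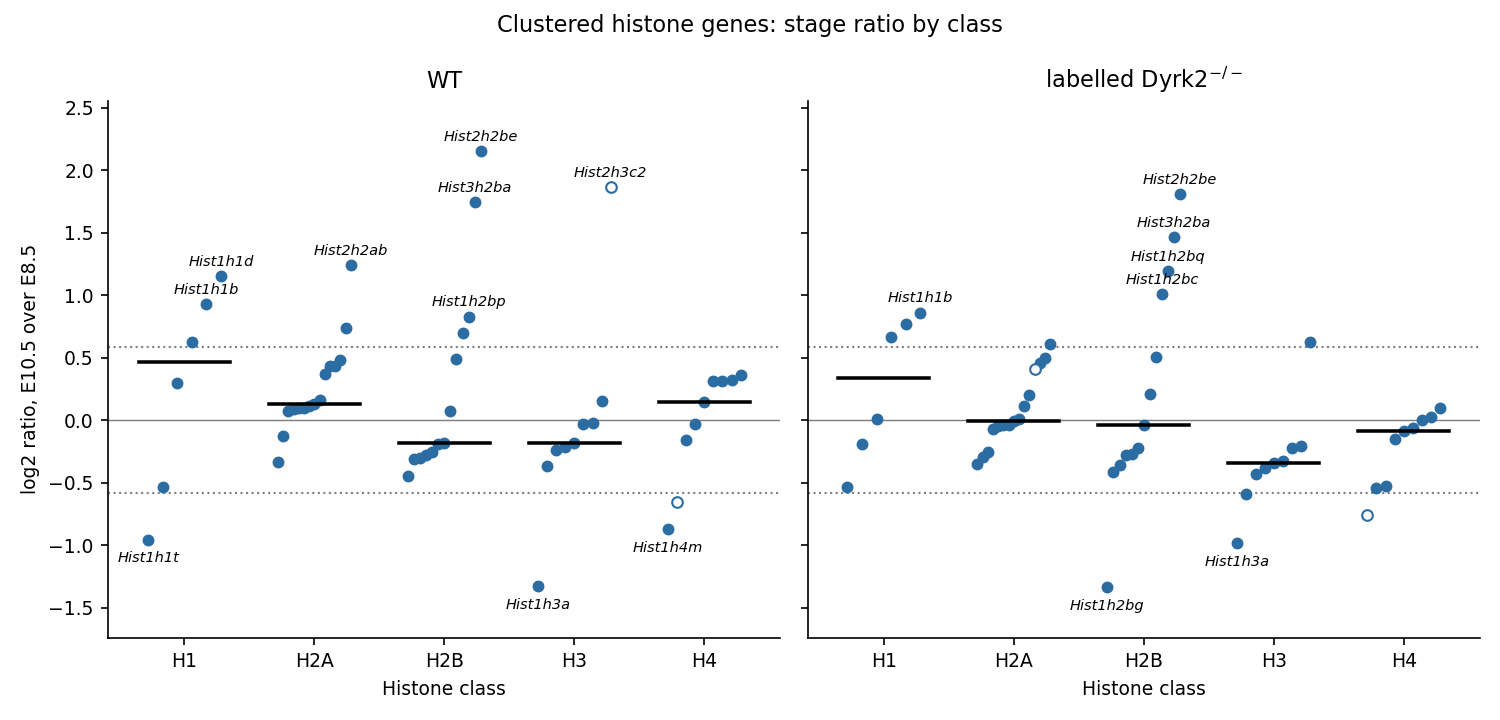
Log2 ratio of E10.5 over E8.5 for each clustered histone gene (points) by class, in WT (left) and the mutant-labelled pair (right); open points are genes well above background on 1 of the 2 arrays, black bars are class medians and dotted lines mark 1.5-fold. Hist2h2be (2.15 and 1.81) and Hist3h2ba (1.74 and 1.46) stand high and Hist1h3a (−1.33 and −0.98) low in both; the H3 medians (−0.18 and −0.35) lie below and the H1 medians (0.46 and 0.34) above 0, while spike-in scaling, which puts the median of all genes at 0.59 in the mutant-labelled pair, turns the H3 median there to 0.29.

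For the stage, limma called 18 of 61 clustered histone probes at an adjusted p under 0.05, 14 higher and 4 lower at E10.5, where it called 35.3% of all 32289 probes. With 1 residual degree of freedom, the spread of a probe is how far the WT and mutant-labelled stage ratios differ, pooled with that of other probes. The p and intervals of limma therefore do not measure the spread between embryos, and the mutant-labelled E10.5 array also differs in its sex genes. Hist2h2be led with 1.98 (95% interval 1.65 to 2.31, limma adjusted p = 1.68e-05), and its other probe gave 1.91 (adjusted p = 9.53e-05). Hist3h2ba gave 1.60 (1.31 to 1.90, adjusted p = 2.94e-05), Hist1h3a −1.16 (−1.48 to −0.83, adjusted p = 0.000338), Hist1h1b 0.90 (0.64 to 1.15, adjusted p = 0.000378) and Hist1h1d 0.96 (0.65 to 1.27, adjusted p = 0.000813). Hist1h2bc, Hist3h2a, Hist1h1a, Hist1h4m and Hist1h2ag followed by p. For each of these 10 genes both E10.5 values lay on the same side of both E8.5 values. They were picked by p from these same 4 values, so this adds no support. With spike-in scaling 3 probes were called, all higher, so that Hist1h3a and every other lower call is lost. Without scaling 17 higher and 2 lower were called, and with no intensity trend 9 and 2.

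The probes of 1 gene did not always give the same answer. Of 12 genes with more than 1 probe, 8 had at least 2 probes well above background on all arrays, and their signs differed in 3 genes for the genotype at E8.5, 4 at E10.5, 1 for the stage in WT and 2 in the mutant-labelled pair. Hist1h2ai is counted for the genotype at both stages, but its probes are annotated far apart, at 21902706 and 21808994 of chromosome 13. Its dimmer probe read −4.17, −4.01, −4.21 and −4.18, so these need not be 2 readings of 1 gene. Hist1h1c is the clearest case. Its brightest probe, which reaches into the stem-loop, read 2.80, 2.78, 2.27 and 2.25, and a probe 688 bases further along the gene read −0.51, −0.62, −0.01 and −0.16. The former was lower at E10.5 in both genotypes (limma −0.54, adjusted p = 0.00812) and the latter higher (0.48, adjusted p = 0.0265). Relative to all genes both directions held with quantile normalization, normexp and the deposited values as well. Hist3h2ba was higher at E10.5 at both its probes, by 1.11 and 1.15 at the stem-loop and by 1.74 and 1.46 at 160 bases downstream. Hist3h2a differed in sign for the genotype at E8.5, with 0.34 and −0.35.

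These differences led to the probe sequences, since a probe behind the stem-loop can pair only with a transcript that runs past it. A stem-loop was searched as a stem of 6 bases, a loop of 4 and the matching stem, 16 bases in all, on the transcript strand. The whole of it lies in 6 clustered histone probes, of 7 among all 56604 probes (0.0124%). Its 5′ part of 9 or more bases ends 5 others, of 21 among all probes (0.0371%), so that part is less particular to these genes. Not shown are the windows of Hist1h2ab and Hist1h2ai, which hold 11 and 13 bases of the stem-loop. The others are given because they show how much of the stem-loop each probe covers, with up to 7 flanking bases and the stem-loop or its part in capitals.
Hist1h3a: aaccaaaGGCTCTTTTCAGAGCCaca
Hist1h3g: ctttaaaGGCTCTTCTTAGAGCCaccca
Hist1h3i: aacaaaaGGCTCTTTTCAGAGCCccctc
Hist1h2bf: acccaaaGGCTCTTTTCAGAGCCaccta
Hist2h2bb: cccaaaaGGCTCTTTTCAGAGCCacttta
Hist1h4m: aactaaaGGCCCTTTTCAGGGCCatccaa
Hist3h2ba: acccaaaGGCTCTTTTCAGA
Hist1h1c: tccaaaaGGCTCTTTT
Hist1h1t: acccaaaGGCTGTTTT

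All 6 probes with the whole stem-loop were lower at E10.5 in both genotypes, with a median of −0.35 in WT and −0.49 in the mutant-labelled pair. Relative to all genes these medians ranged from −0.26 to −0.19 and from −0.45 to −0.36 with the chosen scaling, quantile normalization, normexp and the deposited values. Without that reference spike-in scaling put 5 of the 6 above 0 in the mutant-labelled pair. No scaling put 1 of the 6 above 0 in each genotype, and quantile normalization 1 in WT. They belong to 3 H3 genes, 2 H2B genes and 1 H4 gene. The remaining probe of the array with the whole stem-loop, described there as H2aa1 of histone cluster 2 but not named as a clustered histone gene, ran the other way, with 1.48 and 1.66. The 5 probes with the 5′ part had no shared direction, from −0.96 to 1.11 in WT, where Hist3h2ba and Hist1h2ab (0.48 and 0.50) were the higher. A 3′ part begins 2 further probes, of Hist1h2ae (−0.34 and 0.20) and the dimmer one of Hist2h2ac, which was below background on all arrays. For the genotype, the 6 whole stem-loop probes had at E8.5 a median of −0.11, with 3 of 6 below 0, and −0.16 at E10.5, with 6 of 6 below 0 but 3 of 6 with spike-in scaling.

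A polyadenylation hexamer (AATAAA or ATTAAA on the transcript strand) lies in 5 clustered histone probes and in 13.4% of all probes. The probes of Hist2h2be, Hist3h2ba, Hist1h2ag and Hist1h2be among them were above background on all 4 arrays, and all 4 were higher at E10.5 in both genotypes, with medians of 1.09 and 1.03. Relative to all genes the medians were 1.13 to 1.21 and 1.09 to 1.16 over the scalings, although 1 of the 4 ratios was below 0 in WT with quantile normalization, normexp and the deposited values. In Hist1h2ag the hexamer overlaps the stop codon. The Hist1h2ag probe shares a run of 39 bases with that of Hist1h2ah (0.43 and −0.29), so its signal need not be of Hist1h2ag alone. The probe of Hist2h2bb with a hexamer, 8698 bases downstream of its stem-loop probe, was below background on the mutant-labelled E10.5 array and did not share this direction, with −0.03 in WT and at least 1.69-fold lower at E10.5 in the mutant-labelled pair. The medians above leave it out, since they take probes above background on all arrays. These features were compared after the values had been seen, and their part in the stage ratios was not tested.

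**Figure D3:**
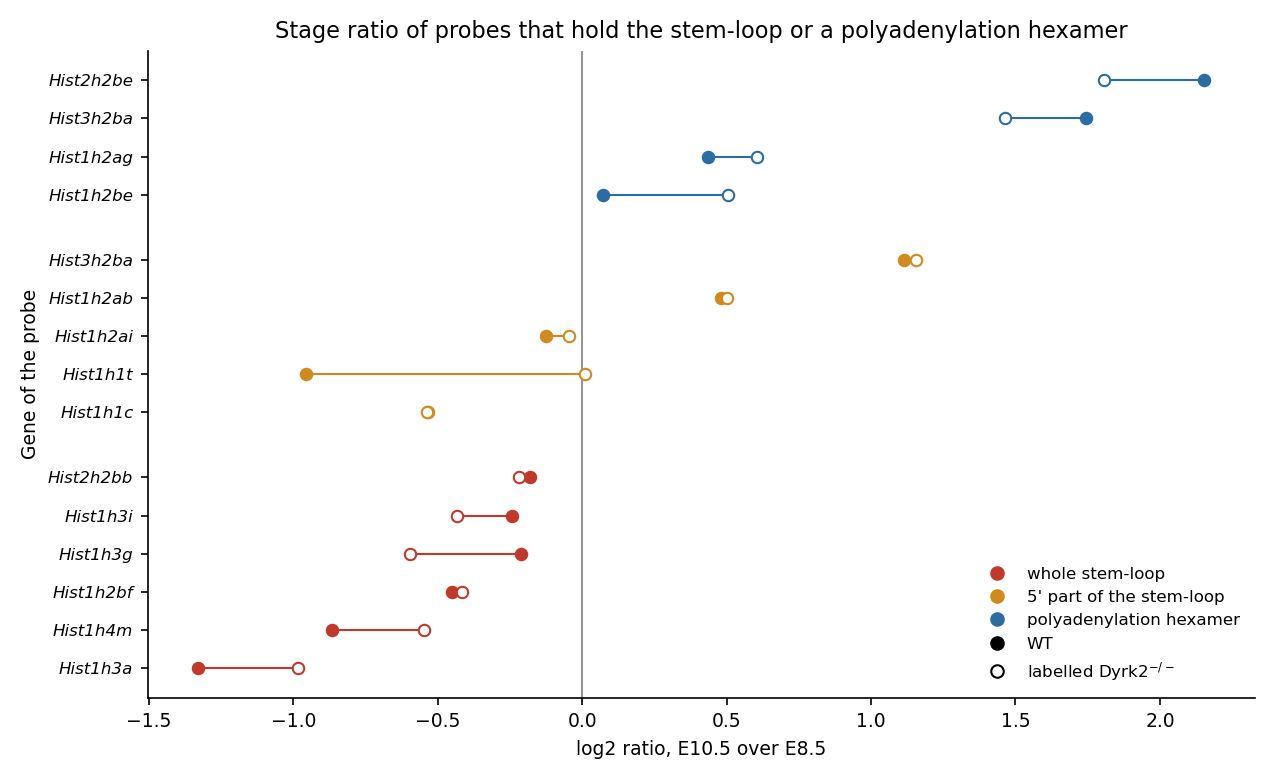
Log2 ratio of E10.5 over E8.5 in WT (filled) and the mutant-labelled pair (open) for probes of the clustered histone genes that hold the whole histone stem-loop (red), its 5′ part (orange) or a polyadenylation hexamer (blue), each well above background on all 4 arrays. The whole stem-loop probes have medians of −0.35 and −0.49 and the hexamer probes 1.09 and 1.03; spike-in scaling turns the stem-loop median in the mutant-labelled pair to 0.15, and not shown are a whole stem-loop probe outside the named genes (1.48 and 1.66) and the dim hexamer probe of Hist2h2bb (−0.03, and at least 1.69-fold lower).

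Of all clustered histone probes, 11 share a run of at least 25 bases with the probe of another clustered histone gene and cannot be taken as separate, most of them probes of H2A genes. At E8.5 their median genotype ratio was 0.25 and at E10.5 −0.02, which relative to all genes was above 0 at E8.5 and below 0 at E10.5 in each scaling. The probes of 4 H2A genes that cover the same last 60 bases of the reading frame, stop codon included, are shown, with capitals where a base differs from Hist1h2ak.
Hist1h2ak: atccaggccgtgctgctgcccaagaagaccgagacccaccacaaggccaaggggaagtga
Hist1h2af: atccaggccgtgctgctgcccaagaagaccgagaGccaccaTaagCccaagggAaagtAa
Hist1h2an: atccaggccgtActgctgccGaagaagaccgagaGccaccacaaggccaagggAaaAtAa
Hist2h2aa2: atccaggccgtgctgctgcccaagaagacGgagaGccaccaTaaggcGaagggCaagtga
Hist1h2af and Hist2h2aa2 differ from it at 5 positions and Hist1h2an at 6. Hist1h2ak read 7.86, 8.03, 7.96 and 8.04, Hist1h2af 7.86, 8.03, 7.96 and 7.78, Hist1h2an 7.69, 7.95, 7.85 and 7.60, and Hist2h2aa2 7.49, 7.74, 7.61 and 7.70. All 4 were higher on the mutant-labelled array at E8.5 by 0.17 to 0.26, and at E10.5 they parted, with Hist1h2ak (0.08) and Hist2h2aa2 (0.10) above 0 and Hist1h2af (−0.18) and Hist1h2an (−0.25) below. The ratios of all 4 at E8.5 turn negative with spike-in scaling and lie between −0.09 and 0.00 without scaling.

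By the annotation of their probes, the genes of cluster 1 fall into 2 blocks on chromosome 13 (mm9), 15 genes from 21814057 to 22133198 and 26 genes from 23622937 to 24026718, with Hist1h2al apart at 51295494. Hist1h2ag is counted in the latter block through a probe annotated from 23666685 to 23726365, but its RefSeq promoter (GRCm38.p6, chr13:22042950-22043059, minus strand) lies beside those of Hist1h4i and Hist1h2ah, whose probes are in the former. The brightest probes of Hist1h2an (21902669, plus strand) and Hist1h2ai (21902706) are annotated beside that of Hist1h2ao (21902695). Their promoters start at 21787249 (minus strand) and 21716302 (GRCm38.p6), away from that of Hist1h2ao (21810257). The annotated places of these probes need not be those of the genes. Neither block moved as 1. Stage ratios ran from −0.87 to 0.93 in WT in the former and from −1.33 to 1.15 in the latter. Neighbours differed, such as Hist1h1b (0.93) beside Hist1h3i (−0.24), with probe starts at 21871923 and 21874784. In cluster 2 on chromosome 3, Hist2h2be (2.15) lies between Hist2h2ac (0.09) and Hist2h3c2. In cluster 3 on chromosome 11 both measured genes were higher at E10.5, with 0.73 for Hist3h2a and 1.74 for Hist3h2ba in WT and 0.46 and 1.46 in the mutant-labelled pair.

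**Figure D4:**
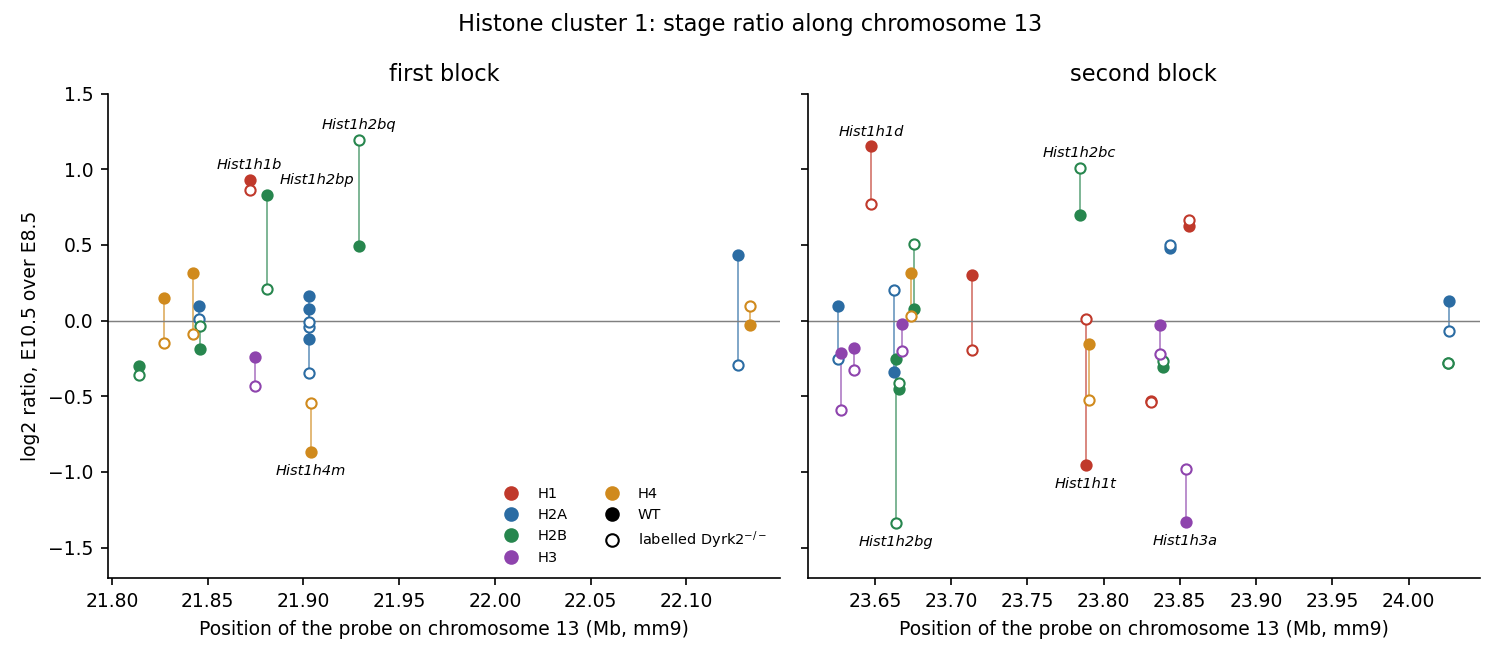
Log2 ratio of E10.5 over E8.5 in WT (filled) and the mutant-labelled pair (open) for genes of cluster 1 well above background on all 4 arrays, at the start of their probe on chromosome 13 (Mb, mm9), coloured by class; Hist1h2ag, whose probe is annotated over a longer stretch, is left out. The ratios in WT run from −0.87 to 0.93 in the block on the left and from −1.33 to 1.15 in the block on the right. Probes stand where they are annotated, which for Hist1h2an and Hist1h2ai is beside Hist1h2ao and away from their own promoters.

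RefSeq promoters (GRCm38.p6), from 250 bases before to 50 after the start, were found for 49 of the 56 genes. They were not found for Hist1h2al, Hist1h2bc, Hist1h3a, Hist1h3f, Hist2h2be, Hist2h4 and Hist3h2bb-ps. They were searched on both strands for the CCAAT box (CCAAT), the TATA box (TATAAA) and the octamer bound by Oct1 (ATTTGCAT). CCAAT was present in 43 of 49 (37.9% of all 27025 promoters), in every promoter found of H1, H2A, H2B and H3 and in 2 of 8 of H4. TATAAA was present in 29 of 49 (14.2%), and the octamer in 12 of 49 (1.75%), 7 of 17 in H2A, 5 of 11 in H2B and 0 in H1, H3 and H4. The 110 bases before the start are shown for 2 H1 genes and an H2B gene that were higher at E10.5, a stem-loop H2B gene and 2 H4 genes, to set these class differences side by side, with the motifs in capitals.
Hist1h1b, chr13:21780626-21780735, minus strand: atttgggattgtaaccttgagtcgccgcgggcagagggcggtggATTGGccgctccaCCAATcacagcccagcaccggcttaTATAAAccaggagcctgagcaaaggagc
Hist1h1d, chr13:23554922-23555031, plus strand: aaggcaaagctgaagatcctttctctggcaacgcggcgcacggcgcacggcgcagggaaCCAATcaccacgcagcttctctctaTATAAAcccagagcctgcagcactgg
Hist3h2ba, chr11:58948801-58948910, plus strand: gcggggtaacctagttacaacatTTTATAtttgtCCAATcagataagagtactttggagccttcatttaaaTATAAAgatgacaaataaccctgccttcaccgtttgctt
Hist2h2bb, chr3:96269590-96269699, plus strand: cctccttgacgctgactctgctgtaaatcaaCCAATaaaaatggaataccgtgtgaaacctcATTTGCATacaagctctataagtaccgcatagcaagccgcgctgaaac
Hist1h4d, chr13:23581458-23581567, plus strand: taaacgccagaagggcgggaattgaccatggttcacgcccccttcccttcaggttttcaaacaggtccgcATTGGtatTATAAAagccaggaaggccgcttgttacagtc
Hist1h4k, chr13:21750554-21750663, minus strand: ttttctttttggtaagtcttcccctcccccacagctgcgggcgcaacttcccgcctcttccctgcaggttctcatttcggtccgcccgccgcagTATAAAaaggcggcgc
A match says that these letters are in the window and nothing of what binds there.

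Genes that make, process and deposit histones are described by their counts, against 11.6% of all genes past 1.5-fold between the genotypes at E8.5 and 7.72% at E10.5. Of 15 genes of histone transcription and pre-mRNA processing, 0 passed at either stage (medians −0.02 and 0.03). With spike-in scaling 7 of these 15 were lower on the mutant-labelled array at E8.5, as were 5 of 12 chaperone and deposition genes, 7 of 12 replication-independent histone genes and 7 of 18 S phase genes, and 0 passed at E10.5. With no scaling the numbers at E8.5 were 0, 0, 1 and 2. Slbp, which binds the stem-loop, read 2.28, 2.09, 1.51 and 1.76, and Npat, the coactivator of histone transcription, read 0.15, −0.02, −0.21 and −0.21. Between stages, 1 was higher and 3 lower in WT and 1 higher and 1 lower in the mutant-labelled pair, where 36.4% and 31.5% of all genes passed. Zfp473, a U7 snRNP-associated zinc finger protein, was lower at E10.5 in both (−1.24 and −1.11), Slbp in WT (−0.77, against −0.33) and Cstf2 in WT (−0.73, against −0.42). Lsm11, a protein of the U7 snRNP, was higher in both (0.69 and 0.60). With spike-in scaling Zfp473 was within 1.5-fold in the mutant-labelled pair (−0.47) and Slbp (0.31) and Cstf2 (0.22) turned positive there, without scaling Cstf2 was within 1.5-fold in WT (−0.55), and with normexp Lsm11 was within it in the mutant-labelled pair (0.52). The stage median of the list was −0.29 in WT and −0.25 in the mutant-labelled pair, and relative to all genes it was below 0 in each scaling, while without that reference spike-in scaling turned the latter to 0.39 and no scaling to 0.05.

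Of 12 histone chaperone and deposition genes, 0 passed between the genotypes (medians −0.00 and 0.06). At E10.5 against E8.5 the acetyltransferase Hat1 (−0.84 and −0.61) and the importin Ipo4 (−0.77 and −0.69) were lower in both genotypes, Rbbp7 was lower in WT (−0.72) and the chaperone Asf1a was higher in both (0.69 and 0.77). Spike-in scaling takes Hat1 to 0.02 and Ipo4 to −0.05 in the mutant-labelled pair, and quantile normalization takes Ipo4 in both genotypes (−0.53 and −0.52), Hat1 in the mutant-labelled pair (−0.47) and Rbbp7 in WT (−0.50) below 1.5-fold. The deposited values do the same, no scaling ends the calls of Hat1 and Ipo4 in the mutant-labelled pair and of Rbbp7 in WT, and normexp those of Hat1 in the mutant-labelled pair and of Asf1a in both genotypes. Of 17 replication-independent histone genes listed, H3f3c and H3f5 were not among the array's gene names, H1fnt, H2afb1 and H2bfm were below background on all arrays, and 12 were compared. Between the genotypes 0 of the 12 passed. H3f3a, a gene of the replacement histone H3.3, had the lowest ratio at E8.5 (−0.57, from 7.04 to 6.47), and between the stages H1fx (0.74) and H2afy (0.72) were higher in WT and 0 passed in the mutant-labelled pair, where 10 of the 12 were higher with spike-in scaling and 3 without scaling.

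Of 18 S phase genes, 0 passed between the genotypes at either stage (medians −0.02 and 0.11). At E10.5 against E8.5, 0 were higher and 6 lower in WT (median −0.45) and 1 higher and 3 lower in the mutant-labelled pair (median −0.32), with 16 of 18 below 0 in each. Over all genes 36.4% and 31.5% passed. Without scaling 1 of the 18 was lower in WT, and with quantile normalization 2, while spike-in scaling gave 8 lower in WT and 2 higher and 0 lower in the mutant-labelled pair. The replicative helicase gene Mcm4 (−0.82 and −0.72), the cyclin gene Ccne1 (−0.63 and −0.62) and the licensing gene Cdt1 (−0.69 and −0.92) were lower in both, and the reductase gene Rrm1 was higher in the mutant-labelled pair (0.81). With spike-in scaling Mcm4 (−0.08), Ccne1 (0.02) and Cdt1 (−0.28) do not pass in the mutant-labelled pair, and with quantile normalization, the deposited values and no scaling Ccne1 passes in neither genotype and Cdt1 not in WT. Without scaling Mcm4 (−0.42) does not pass in the mutant-labelled pair either. With spike-in scaling the S phase median in the mutant-labelled pair turns positive, while relative to all genes it is below 0 in each scaling. All 4 clustered genes listed here as testis histones (Hist1h1t, Hist1h2aa, Hist1h2ba and Hist3h2ba) were above background on all arrays. The place of Hist3h2ba on that list was not checked. The probe of Hist1h2aa shares a run of 45 bases with that of Hist2h2ac, so its signal need not be of that gene alone. Of 6 germ cell and testis markers, Dazl, Prm1, Prm2 and Sycp3 were below background on all 4 arrays, Ddx4 was above it on all 4 (−2.77, −3.06, −3.66 and −4.52) and Tnp1 on 2.

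The same cell markers also differed between the stages. All 17 erythroid genes were higher at E10.5 in both genotypes, with medians of 5.49 and 2.34, and of 8 yolk sac endoderm genes 6 were lower in both, with 1 higher in WT and 2 in the mutant-labelled pair. Of 5 mesoderm and heart genes 4 were lower in WT and 5 in the mutant-labelled pair, and of 3 endoderm genes 3 and 2, where 36.4% and 31.5% of all genes passed. With spike-in scaling 1 of the 5 (Tbx6) and 1 of the 3 were lower in the mutant-labelled pair. Of the neural genes 0 of 4 passed, but 1 was higher in that pair with spike-in scaling. Their part in the stage ratios of the histone genes was not tested.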

How the data were processed

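RNA from 4 samples was measured on 4 arrays (Agilent SurePrint G3 mouse, 1 colour, 1 array per group, all on 1 slide). The authors deposited the scanner output. Its processed intensity is background-subtracted and detrended within each array and carries no scaling between them; its spot mean and local background intensity are raw pixel values. Per the file headers it was made with Feature Extraction 10.7.1.1 on mm9; the submitters' processing notes name 9.5.1.1. A second table the authors deposited holds linear intensities, with a median of 27.6 in every column; its method is not stated, and it served as an alternative.

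Spots marked as outliers were dropped and log2 values averaged per probe; each array's 75th percentile was then subtracted. A probe was taken as above background if the scanner software marked 50% or more of its spots so. Genes took their brightest probe and were compared if it was above background on 1 array of the pair or both. Where 1 array was below, the fold is a bound, computed with that array at its own value or at its lowest signal above background, whichever is higher; calls used the measured values. The 4 arrays had 31370, 30226, 31818 and 31943 of 56605 probes above background; 1 probe without a value was left out.

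Genotype and stage were tested with limma 3.58.1 in R 4.3.3 (lmFit, eBayes with an intensity trend, prior degrees of freedom 8.07, Benjamini-Hochberg over probes above background on at least 2 arrays). Python 3.11.15, numpy 2.4.6, pandas 2.3.3 and matplotlib 3.10.9 were used. Columns of samples outside the series numbered 0. The alternatives were quantile normalization, spike-in scaling (7 of 10 spike-in probes), no scaling, normexp with an offset of 50, the deposited table, other filters and thresholds, and the mean over a gene's probes.

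Members and gene lists were chosen with earlier results of these data known. Genes named are, per class, the 2 highest and 2 lowest ratios at each stage and between stages, members past the thresholds or with a bound of 1.5-fold, at most 10 by limma p, testis histones and single-gene clusters; genes with more than 1 probe, neighbours and genes of a shared sequence were named after their values were seen.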

Additional observations from a re-analysis of the deposited data

Results flagged for a closer look

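Hist1h2bg and Hist2h2ab stood out because they were past 1.5-fold between the genotypes at E8.5, above background on all 4 arrays, and of the other sign at E10.5. Opposite signs alone were not particular to them, as in Hist1h1t (−0.52 and 0.44) and Hist1h2ah (0.32 and −0.41). The log2 ratio of the mutant-labelled array over WT at E8.5 was 0.75 for Hist1h2bg and 0.74 for Hist2h2ab, and at E10.5 it was −0.33 and −0.54. With 1 array per group the difference between the stages was not tested, and both probes lie low on the intensity scale. Both E8.5 ratios are below 1.5-fold with spike-in scaling (0.20 for Hist1h2bg and 0.19 for Hist2h2ab), without scaling (0.49 and 0.48) and with normexp (0.40 for each).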

How the results depend on the processing

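Counts are of clustered histone genes past the threshold and medians are log2 ratios over those compared; the value of the chosen processing stands in brackets.

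Spike-in scaling gave 21 (4) genes and a median of −0.45 (0.09) between the genotypes at E8.5, a median of 0.08 (−0.08) at E10.5, and 27 (13) genes and a median of 0.59 (−0.05) between the stages in the mutant-labelled pair. It turned the ratio of Hist1h3g between the stages in the mutant-labelled pair to 0.04 (−0.59). The limma calls for the stage were 3 (18). No scaling gave medians of −0.16 (0.09) at E8.5, −0.21 (−0.08) at E10.5, 0.28 (0.10) between the stages in WT and 0.25 (−0.05) in the mutant-labelled pair, and 2 (0) limma calls for the genotype, both lower. Of all genes past the threshold, 44.1% were higher at E8.5, 2.85% with spike-in scaling and 13.8% without scaling; at E10.5 45.4%, 69.2%, 28.9% and, with normexp, 55.9%; between the stages in WT 51.8% and, without scaling, 66.9%; in the mutant-labelled pair 55.8%, 91.6% and 79.5%.

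The normexp background correction gave 0 (4) genes at E8.5, 1 (2) at E10.5 and 8 (13) between the stages in the mutant-labelled pair. Averaging the probes of each gene gave 1 (2) at E10.5. The 2-fold threshold gave 1 (4) at E8.5, 0 (2) at E10.5, 6 (14) between the stages in WT and 5 (13) in the mutant-labelled pair; 1.5-fold with a Z-score gave 1, 0, 0 and 0. With no filter limma called 1 (0) probe for the genotype, lower, and with no intensity trend 11 (18) for the stage.

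Quantile normalization and the deposited table gave counts within 1.5 times of the chosen ones. Both gave medians between the stages of 0.18 (0.10) in WT and 0.04 (−0.05) in the mutant-labelled pair. Pairing by replicate number was not possible because the groups share replicate number 1 alone, fewer than 2. The limma fit held genotype and stage as terms together. The cause of these differences was not tested.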

Other observations

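A probe outside the clustered histone genes by name holds the whole stem-loop as well. The array names it by its transcript alone and describes it as H2aa1 of histone cluster 2, on chromosome 3 from 96049949 to 96050005 (mm9). It read −2.82, −3.35, −1.34 and −1.69 on WT E8.5, mutant-labelled E8.5, WT E10.5 and mutant-labelled E10.5, which is 2.80-fold higher at E10.5 in WT and 3.16-fold higher in the mutant-labelled pair. Its direction is opposite to that of the 6 stem-loop probes of the named genes, and it was picked out after its values had been seen.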
